A study of Mus musculus with 9 samples.

Results

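Transcripts of the fibroblast growth factor (FGF) ligands Fgf1, Fgf2, Fgf7, Fgf9, Fgf10 and Fgf18 and of the receptors Fgfr1, Fgfr2, Fgfr3 and Fgfr4 were followed. The cells were sorted populations that the study designates activated hepatic stellate cells (aHSCs), the scar-forming cells of injured liver. The 10 genes, of 30869 gene symbols on the array, were chosen by family with earlier results of these data known, the measured group differences of Fgf1 among them, so their levels and differences are given here as a description with no test. All 19 probes carrying one of these symbols are included. Of these, 9 probes of 7 genes passed the filter on dim signal (a detection p-value under 0.05 on at least 3 of the 9 arrays). Fgf10, Fgfr3 and Fgfr4 had no such probe.

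RNA was measured on Illumina MouseWG-6 bead arrays, which read each transcript through short fixed probes. The labels give male mice of strain C57/Bl6 and genotype WT1GFP/+ for every sample, so every group carried the green fluorescent protein (GFP) reporter on 1 allele of the Wilms tumour gene WT1. WT1-high cells (GFP high, replicates 1, 8 and 29) and WT1-intermediate cells (GFP low, replicates 1, 8 and 30) were sorted without culture from livers made fibrotic with carbon tetrachloride. WT1-negative cells (GFP negative, replicates 3, 11 and 14) were sorted from stellate cells of uninjured mice that had become activated over 7 days on plastic. Liver or culture origin therefore coincided with WT1 status, and the effects of both on any difference from WT1-negative cells cannot be told apart. Per the study's methods, replicates were individual animals in vivo and independent cell isolations in culture. No probe carried the symbol Wt1, and the reporter was not analysed here.

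FGF ligands are secreted proteins that bind heparan sulphate chains on the cell surface and matrix, and they signal through receptor tyrosine kinases encoded by the Fgfr genes. Most act over short distances, often between mesenchyme and epithelium. A ligand such as Fgf7 or Fgf10 typically comes from the mesenchyme and acts on the epithelial splice form of Fgfr2, whereas Fgf1 can bind every receptor form. In liver, FGF signals are known from bile acid and metabolic control, regeneration and the response of stellate cells to injury.

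The probe sequences show what was read for the members whose levels differed most. They are the deposited sequences, of which the first 30 of 50 bases are printed, and no capitals are used. The sequence for Fgf1 is not printed. The 4 probes of Fgfr2 are all shown because they gave very unequal signals.
Fgf7 ILMN_2833706: gctgctgggatgctttgtcagatgatcaag
Fgf9 ILMN_2648289: attcgcggtgtggacagtggactctacctc
Fgf18 ILMN_2764004: gctaggtccggccacactcacccccccaga
Fgfr2 ILMN_1225071: ttgctttggatacgcccactcactttgcta
Fgfr2 ILMN_1229167: ctggagatgatgaggacgacacagatagct
Fgfr2 ILMN_2609887: gagtgaatgtgtcttcctgtccccaaacag
Fgfr2 ILMN_2646078: caatgcagaagtgctggctctgttcaatgt

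The 9 arrays had a mean signal between 147 and 289, median negative control signals between 76.3 and 93.6, and 17253 to 19774 detected probes each. Of 15 stellate markers, 11 were tested, and their mean log2 level lay between 7.60 and 7.73 in WT1-high, 7.43 and 7.79 in WT1-intermediate and 7.21 and 7.35 in WT1-negative arrays. The defining markers Lrat, Gfap, Lhx2 and Rgs5 did not pass the filter. The mean level of 12 mesothelial markers was 11.4 to 11.5, 10.7 to 11.1 and 4.94 to 5.11 in the same order, and 5 of them (Lrrn4, Gpm6a, Dmkn, Krt19 and Muc16) were detected on no WT1-negative array. Macrophage markers (14 genes) had a mean level of 7.39 to 7.83 in WT1-high, 9.17 to 9.54 in WT1-intermediate and 9.58 to 9.76 in WT1-negative arrays, with Itgam detected on no WT1-high array and Clec4f on no WT1-negative array. Skeletal muscle markers (7 genes) lay between 4.32 and 4.61 on the liver arrays and between 9.01 and 9.51 on the WT1-negative arrays. The part of these other cell types in any FGF difference was not tested. In sorted bulk RNA, fewer cells of a type and less RNA per cell cannot be told apart.

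**Figure D1:**
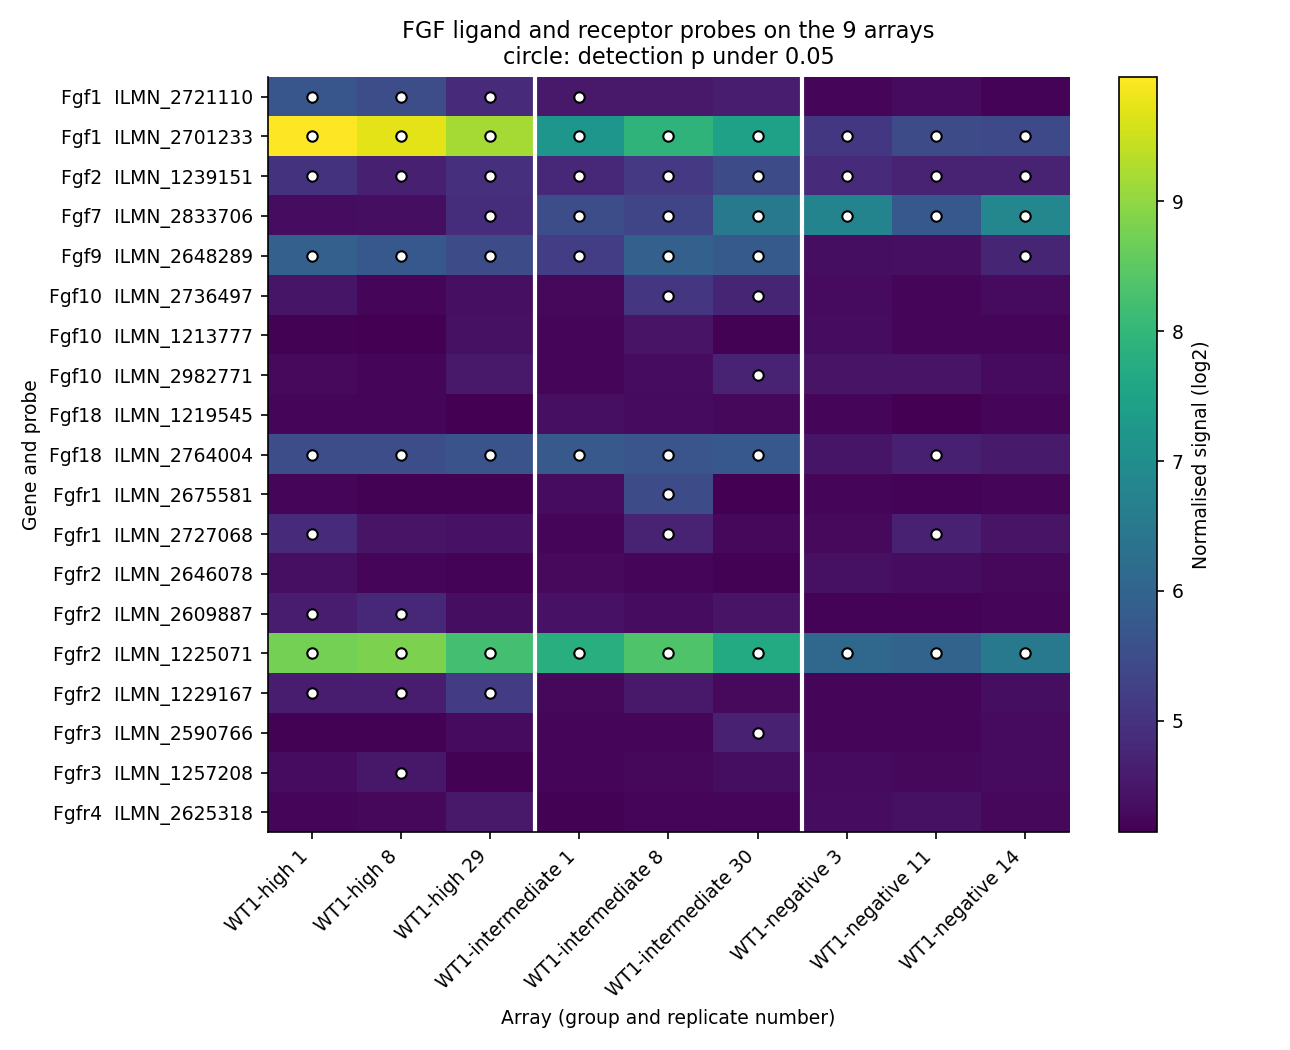
Normalised signal (log2, colour) of all 19 FGF probes (rows) on the 9 arrays (columns), with a circle where the detection p-value was under 0.05. The lead probes of Fgf1 and Fgfr2 were detected on all 9 arrays and brightest in WT1-high cells, Fgf7 was brightest in WT1-negative cells, and most other probes were dim throughout.

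Between WT1-high and WT1-intermediate cells, 1 of the 9 tested FGF probes was called (limma, Benjamini-Hochberg adjusted p under 0.05 over all probes), where 3.55% of all 20573 tested probes were called, 0.904% higher and 2.64% lower in WT1-high cells. Between WT1-high and WT1-negative cells, 7 of 9 were called, 6 higher and 1 lower, where 59.6% of all probes were called, 26.5% higher and 33.1% lower. Among the 6, Fgfr2 ILMN_1229167 passed the filter on dim signal through WT1-high arrays alone. Fgf1 ILMN_2721110, detected on 3 WT1-high arrays and 1 WT1-intermediate array, would not have passed without its WT1-high arrays. For both probes the filter favoured the higher direction. The WT1-intermediate arrays against the WT1-negative arrays gave 4 calls of 9, all higher, where 58.0% of all probes were called, 24.4% higher and 33.6% lower. Since the family was chosen with these contrasts in view, nothing is read from these shares. The arrays of the 2 groups did not overlap for 5 of 9 FGF probes in the first comparison, 7 in the second and 5 in the third, where 20.1%, 68.4% and 65.5% of all probes did not overlap. The median difference of the 9 probes was 0.185, 0.995 and 0.374 on the log2 scale, beside 0.048, -0.098 and -0.135 over all probes. The comparisons share arrays and are not independent.

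Fgf1, the ligand that binds all FGF receptors, differed most within the family. Its brighter probe (ILMN_2701233, chromosome 18) had log2 levels of 9.96, 9.71 and 9.18 in WT1-high cells, 7.20, 7.92 and 7.48 in WT1-intermediate cells, and 5.09, 5.47 and 5.43 in WT1-negative cells. No group overlapped another, and the order was WT1-high, WT1-intermediate, WT1-negative. The difference was 2.08 ± 0.235 (SE, log2, 4.24-fold) between WT1-high and WT1-intermediate, 4.29 ± 0.235 (19.5-fold) between WT1-high and WT1-negative, and 2.20 ± 0.235 (4.59-fold) between WT1-intermediate and WT1-negative cells. On the linear scale before normalization, this probe read 1111, 1293 and 643 in WT1-high and 163, 304 and 141 in WT1-intermediate arrays. The liver arrays came from 3 animals and were matched by replicate number, with 29 paired to 30 although the sample labels do not pair them. So matched, WT1-high exceeded WT1-intermediate by 2.76, 1.80 and 1.70. The larger of these came from replicate 1, and all 3 pointed the same way.

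The second Fgf1 probe (ILMN_2721110) was far dimmer but placed the groups in the same order. Its log2 levels were 5.71, 5.51 and 4.86 in WT1-high cells, 4.55, 4.54 and 4.59 in WT1-intermediate cells, and 4.22, 4.31 and 4.20 in WT1-negative cells. It was detected on all 3 WT1-high arrays, on 1 WT1-intermediate array and on no WT1-negative array. Without its WT1-high arrays it would not have passed the filter, so the filter favoured a higher level in WT1-high cells. WT1-high cells were at least 1.69-fold above the background limit of WT1-negative cells. Against WT1-intermediate cells the difference was 0.80 ± 0.200 (SE, log2) and was not called, although the arrays did not overlap.

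Fgf7, the keratinocyte growth factor that mesenchymal cells supply to epithelium, ran the other way. Its single probe (chromosome 2) had log2 levels of 4.33, 4.36 and 4.90 in WT1-high cells, 5.51, 5.37 and 6.49 in WT1-intermediate cells, and 6.77, 5.75 and 6.84 in WT1-negative cells. It was detected on 1 of 3 WT1-high arrays and on all arrays of both other groups. The difference of WT1-high from WT1-negative cells was -1.93 ± 0.342 (SE, log2, 3.80-fold), and the groups did not overlap. That from WT1-intermediate cells was -1.26 ± 0.342 (2.40-fold), again without overlap, but it was not called. WT1-intermediate and WT1-negative arrays overlapped, with a difference of -0.66 ± 0.342. Matched by replicate number, the differences of WT1-high from WT1-intermediate were -1.19, -1.01 and -1.59, and WT1-high was the lower in 3 of 3 pairs. Several lists of markers of other cell types were also lower in WT1-high cells, and others were not. All 14 macrophage markers were lower in the WT1-high group than in WT1-intermediate cells (9 called, median -1.89), as were 10 of 12 endothelial markers (4 called, median -0.72). Of 10 portal and adventitial fibroblast markers, 7 were lower (median -0.79), with Pi16 (-3.27) and Dpt (-1.96) called. In contrast, all 6 tested hepatocyte markers were higher in WT1-high cells (0 called, median 0.77), as were all 12 mesothelial markers (1 called, median 0.54). The cholangiocyte list and the T and NK cell list went both ways. The mean level of the endothelial list was 6.11 to 6.37 in WT1-high and 6.79 to 6.87 in WT1-intermediate arrays, and that of the fibroblast list was 8.66 to 9.03 and 9.36 to 10.1. The part of these cell types in the Fgf7 difference was not tested.

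Fgf9, a ligand known from mesothelium and epithelium of developing organs, separated the liver cells from the cultured cells and not the liver groups from each other. Its log2 levels were 5.93, 5.74 and 5.49 in WT1-high cells, 5.20, 5.93 and 5.78 in WT1-intermediate cells, and 4.35, 4.38 and 4.74 in WT1-negative cells. The liver groups overlapped, and both stood above every WT1-negative array. Of the WT1-negative arrays, 1 detected it. WT1-high cells exceeded WT1-negative cells by 1.23 ± 0.211 (SE, log2), and WT1-intermediate cells did so by 1.15 ± 0.211. Between the liver groups it was 0.08 ± 0.211, and the matched differences were 0.73, -0.19 and -0.29.

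Fgf18, a ligand best known from cartilage and bone, had the same split with less spread. Its brighter probe (ILMN_2764004, chromosome 11) had log2 levels of 5.52, 5.52 and 5.63 in WT1-high cells, 5.76, 5.68 and 5.74 in WT1-intermediate cells, and 4.48, 4.65 and 4.55 in WT1-negative cells. WT1-high cells exceeded WT1-negative cells by 1.00 ± 0.130 (SE, log2) and WT1-intermediate cells exceeded them by 1.17 ± 0.130. Of the WT1-negative arrays, 1 detected this probe, so the size of both differences is limited by background. The difference of WT1-high from WT1-intermediate was -0.17 ± 0.130, without overlap, but its direction turned under scaling to equal medians (0.253). The other Fgf18 probe was detected on no array.

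Fgf2, the matrix-bound basic FGF, was detected on all 9 arrays, but its signal was dim. The lowest log2 level of any detected probe was 4.48 to 4.65 per array, so similar Fgf2 levels do not show equal expression. The log2 levels were 5.00, 4.66 and 4.94 in WT1-high cells, 4.79, 5.11 and 5.47 in WT1-intermediate cells, and 4.86, 4.70 and 4.69 in WT1-negative cells, and all groups overlapped. The largest of its differences was 0.37 ± 0.185 (SE, log2), for WT1-intermediate above WT1-negative cells. Fgf10, which shares its receptor with Fgf7, gave 3 probes near background. One was detected on 2 of 3 WT1-intermediate arrays (log2 levels 5.06 and 4.74), one on 1 array and one on none, so no difference was measurable.

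**Figure D2:**
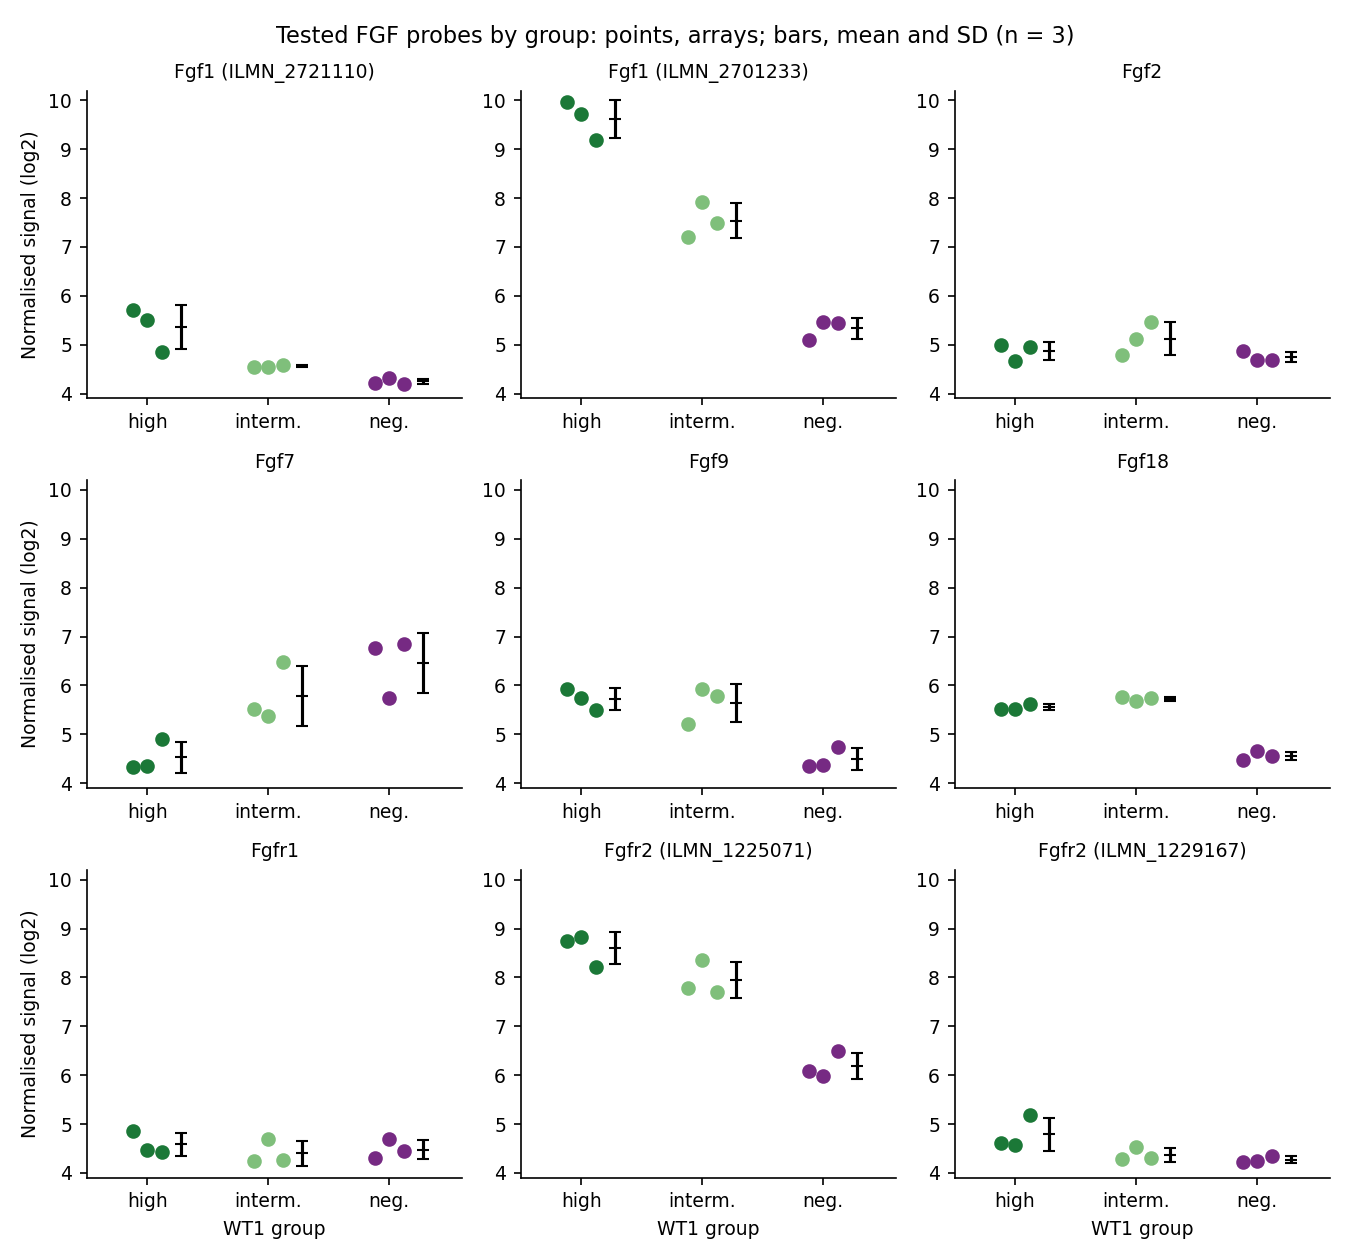
Normalised signal (log2, vertical axis) of the 9 tested FGF probes in WT1-high, WT1-intermediate and WT1-negative cells, with 1 point for each array and the mean and SD (n = 3) beside them. The means of Fgf1 and Fgfr2 step down from WT1-high to WT1-negative, that of Fgf7 steps up, Fgf9 and Fgf18 separate both liver groups from culture, and Fgf2 and Fgfr1 overlap.

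Among the receptors, Fgfr2 was the member with a clear signal. Its brightest probe (ILMN_1225071, chromosome 7) had log2 levels of 8.75, 8.82 and 8.22 in WT1-high cells, 7.78, 8.36 and 7.71 in WT1-intermediate cells, and 6.08, 5.99 and 6.50 in WT1-negative cells. Both liver groups lay above all WT1-negative arrays, while WT1-high replicate 29 was below WT1-intermediate replicate 8. Against WT1-negative cells, the WT1-high difference was 2.40 ± 0.229 (SE, log2, 5.29-fold) and the WT1-intermediate difference 1.76 ± 0.229 (3.38-fold). Between the liver groups it was 0.65 ± 0.229 (1.56-fold) and was not called. Matched by replicate number, WT1-high was the higher in 3 of 3 pairs, by 0.97, 0.46 and 0.51.

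The other Fgfr2 probes were all near background. ILMN_1229167, designed on a different Fgfr2 transcript record from the other 3, was detected on all 3 WT1-high arrays (log2 levels 4.61, 4.58 and 5.18) and on no array of the other groups. WT1-high cells were at least 1.17-fold above the background limit of WT1-intermediate cells, a difference that was not called. They were at least 1.14-fold above that of WT1-negative cells, which was called. The probe passed the filter through WT1-high arrays alone, so both directions were favoured by the filter. ILMN_2609887 was detected on 2 WT1-high arrays (4.61 and 4.79) and on no other, and ILMN_2646078 on none. The probes thus disagreed in signal, and which splice forms each one reads was not analysed here.

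Fgfr1, the receptor typical of mesenchymal cells, was detected on 1 array of each group by its lead probe (ILMN_2727068, chromosome 8). The log2 levels were 4.86, 4.46 and 4.43 in WT1-high cells, 4.24, 4.69 and 4.27 in WT1-intermediate cells, and 4.30, 4.69 and 4.45 in WT1-negative cells. All groups overlapped, and its differences were between -0.08 and 0.18. The second Fgfr1 probe was detected on WT1-intermediate replicate 8 alone (5.47). Fgfr3 was detected on 1 array by each of its 2 probes and Fgfr4, the receptor characteristic of hepatocytes, on none. Probes near background give only an upper bound, so low or absent signal does not show that a receptor was not expressed.

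**Figure D3:**
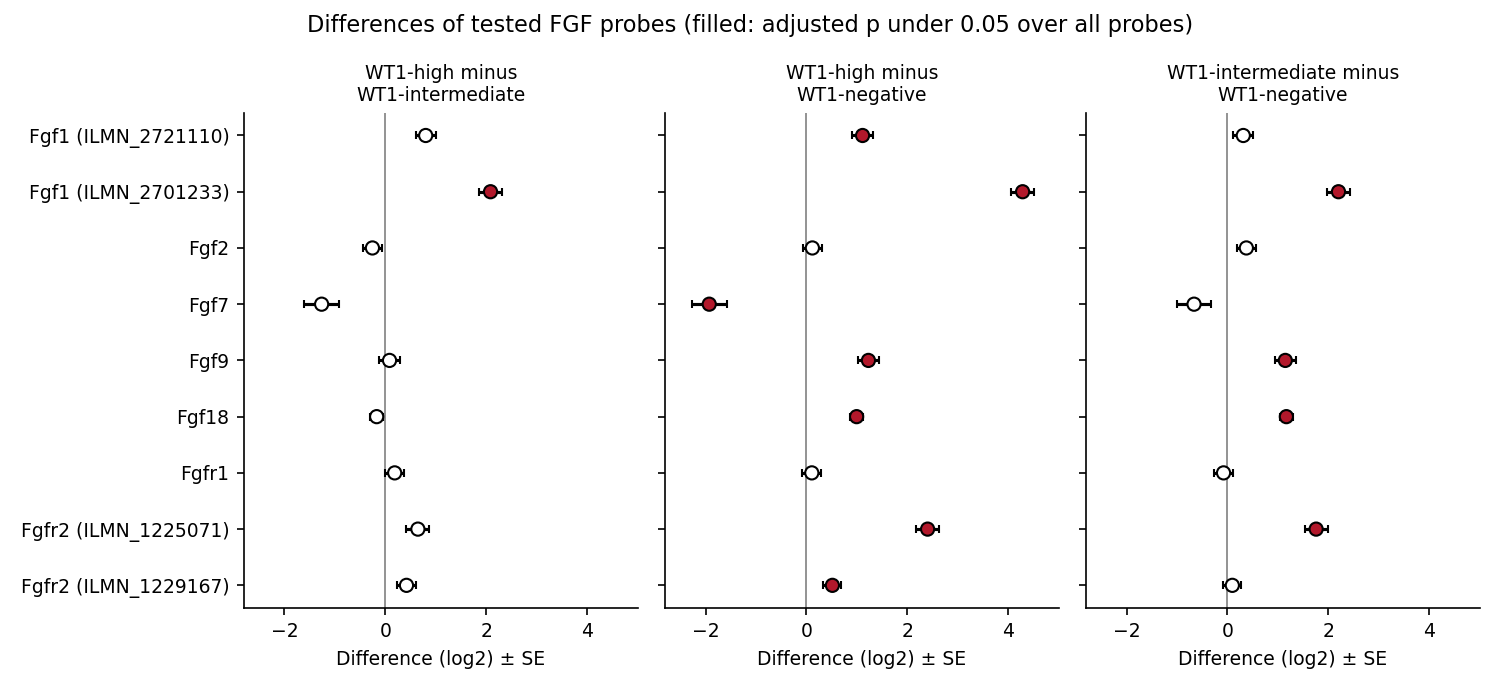
Differences between groups (log2, horizontal axis) with their SE for the 9 tested FGF probes, filled where the adjusted p was under 0.05 over all probes. Fgf1 ILMN_2701233 was the filled probe in the comparison of the liver groups, at 2.08, and Fgf7 lay furthest to the left in all 3 comparisons.

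The question raised by the liver groups is whether WT1-high and WT1-intermediate cells from the same injured livers differ in FGF transcripts. Replicate numbers 1 and 8 recur in both liver groups, whereas the sample labels do not pair 29 with 30. A fit with these pairs as a block (29 with 30, 6 liver arrays) called 4 of the 9 FGF probes, where 7.39% of all probes were called. The family was chosen with earlier results of these data known, so nothing is read from this share. The 4 called were both Fgf1 probes and Fgfr2 ILMN_1225071, higher in WT1-high cells, and Fgf7, lower in WT1-high cells. In the fit without the block, Fgf1 ILMN_2701233 alone was called. The values themselves were identical under both fits. With the block as a random effect (9 arrays), Fgfr2 ILMN_1225071 was not called, and both Fgf1 probes and Fgf7 were.

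**Figure D4:**
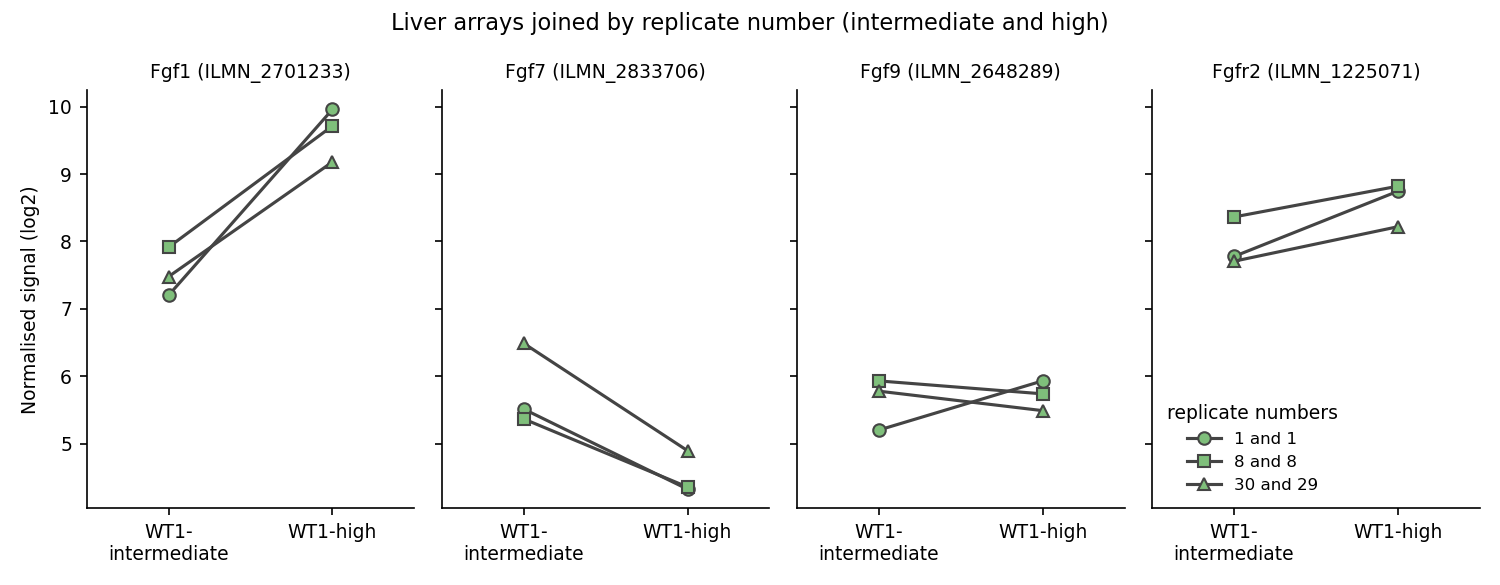
Normalised signal (log2, vertical axis) of Fgf1, Fgf7, Fgf9 and Fgfr2 on the 6 liver arrays, with a line joining WT1-intermediate to WT1-high for each replicate number (30 joined with 29). All 3 lines rise for Fgf1 and Fgfr2, all 3 fall for Fgf7, and those of Fgf9 cross.

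The genes whose profile over the 9 arrays was most like that of a member were found by the root mean square difference of mean-centred log2 levels, over 14659 genes. For Fgf1 they were Stmn2 (0.327), Cldn3 (0.399) and Rai3 (0.466), of which Cldn3 encodes a tight junction protein. Stmn2 had mean log2 levels of 8.34, 6.80 and 4.25 in WT1-high, WT1-intermediate and WT1-negative cells. For Fgfr2 they were 9530064J02, Pitpnm2 and Fam151a, each at 0.141. For Fgf7 they were Ctla2b, Rgs16 and Thbs2, at 0.324 to 0.335, of which Thbs2 encodes a matrix thrombospondin. These likenesses describe 9 arrays of 3 groups and carry no test.

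Outside the family, 81 genes of 5 FGF pathway lists were examined, of which 60 had a tested probe. Between WT1-high and WT1-intermediate cells 1 gene fell and none rose. Another 10 did not overlap between these groups without being called, 6 of them higher and 4 lower in WT1-high cells. Of all tested probes, 3.55% were called and 20.1% did not overlap in this comparison, so nothing is read from these counts. With the block by replicate number (29 with 30), Flrt2 (0.72, adjusted p = 0.0345) and Hs3st1 (0.76, adjusted p = 0.0232) also rose, but neither was called with the block as a random effect (adjusted p = 0.104 and 0.117). WT1-high against WT1-negative cells gave 35 calls (58.3%), 21 up and 14 down. WT1-intermediate against WT1-negative cells gave 34 (56.7%), 19 up and 15 down. These shares lie near those of all probes given above, and the median difference of the 60 genes was 0.096, 0.163 and 0.096 in the 3 comparisons. The counts of each list below stand beside the same all-probe shares. Against WT1-negative cells these were 26.5% higher and 33.1% lower in WT1-high cells, and 24.4% and 33.6% in WT1-intermediate cells. Each gene is given by its tested probe with the highest mean, and adjusted p-values are those of limma with Benjamini-Hochberg adjustment over all probes.

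Of 16 other FGF family genes, 5 were tested. Fgf21, a metabolic hormone of liver and stressed muscle, fell by 2.03 (adjusted p = 0.000515) from WT1-negative to WT1-high cells and fell by 1.85 (adjusted p = 0.00105) from WT1-negative to WT1-intermediate cells. It was detected on 1 WT1-high, 2 WT1-intermediate and 3 WT1-negative arrays, so the size of both falls is limited by background. Its log2 levels were 4.52, 4.47 and 4.42 in WT1-high, 4.35, 4.81 and 4.80 in WT1-intermediate, and 5.60, 7.46 and 6.45 in WT1-negative cells, so the WT1-negative arrays stood apart and spread widely. Fgf8 rose in WT1-high cells, which were at least 1.31-fold above the WT1-negative background limit (adjusted p = 0.0158), and Fgf13 fell by 0.60 (adjusted p = 0.0141). Fgf13 was detected on 1 of 3 WT1-high arrays. The call of Fgf8 was lost without WT1-high replicate 1 (adjusted p = 0.0681) or replicate 8 (0.0556), and without a filter (0.0517). That of Fgf13 was lost without WT1-negative replicate 3 (0.0584). Fgf15 and Fgf22 were called in none of the 3 comparisons without a block.

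Coreceptors and ligand binders, the surface and matrix proteins that present FGFs, were the list in which most tested genes rose. Against WT1-negative cells, 8 of 13 rose and 2 fell in WT1-high cells, and 8 rose and 1 fell in WT1-intermediate cells, with medians of 1.38 and 1.25. The glypican Gpc3 rose most, by 5.08 ± 0.235 (SE, log2, adjusted p = 2.31e-08) in WT1-high and 4.97 ± 0.235 (adjusted p = 3.58e-08) in WT1-intermediate cells. Its levels were 10.8 to 11.6 on the liver arrays and 5.95 to 6.50 on the WT1-negative arrays. Flrt2, a membrane protein that can bind FGF receptors, rose by 2.63 ± 0.310 (adjusted p = 2.62e-05) in WT1-high cells, and Flrt3 rose by 1.98 (adjusted p = 4.37e-06) in WT1-intermediate cells. Gpc1 fell by 0.70 (adjusted p = 0.0398) in WT1-high cells, although the arrays overlapped. Its call was lost on leaving out any of WT1-high replicates 1 and 8 and WT1-negative replicates 3 and 11 (adjusted p between 0.07 and 0.153). It was also lost without background correction (0.0556), with equal medians (0.0652), with offset 50 (0.0503) and without a filter (0.119).

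Syndecan Sdc3 was the pathway gene called between the liver groups without and with each block. Its log2 levels were 7.90, 8.25 and 7.66 in WT1-high cells, 10.1, 9.89 and 9.31 in WT1-intermediate cells, and 11.8, 11.1 and 11.3 in WT1-negative cells, with no overlap. In WT1-high cells the difference was -1.84 ± 0.247 (SE, log2) from WT1-intermediate (adjusted p = 0.00277) and -3.46 ± 0.247 from WT1-negative cells (adjusted p = 6.18e-07). The difference of WT1-intermediate from WT1-negative cells was -1.62 ± 0.247 (adjusted p = 0.00021). Between the liver groups Sdc3 was lower in the same cells as Fgf7 and the macrophage, endothelial and fibroblast lists above, and the part of those cell types was not tested. Its call between the liver groups was lost under scaling to equal medians (difference -1.14, adjusted p = 0.0712).

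Genes that build and edit heparan sulphate, the sugar chain on which FGFs meet their receptors, went both ways, as did all tested probes. Of 14 tested, 4 rose and 4 fell against WT1-negative cells in both liver groups, and none was called between the liver groups without the block. The extracellular sulphatase Sulf1 rose by 4.51 ± 0.223 (SE, log2, adjusted p = 3.79e-08) in WT1-high and 4.34 ± 0.223 (adjusted p = 6.06e-08) in WT1-intermediate cells. The sulphotransferase Hs3st1 rose by 3.58 (adjusted p = 4.52e-06) in WT1-high cells, and the sulphatase Sulf2 rose by 3.12 (adjusted p = 4.28e-08) in WT1-intermediate cells. The heparanase gene Hpse fell most, with differences of -2.92 (adjusted p = 1.82e-06) and -2.64 (adjusted p = 4.96e-06). Hs6st2 fell too, with differences of -1.64 (adjusted p = 1.53e-05) and -1.51 (adjusted p = 3.42e-05). Levels of Sulf1 were 10.4 to 11.1 on the liver arrays and 5.81 to 6.62 on the WT1-negative arrays, and those of Hpse 5.70 to 6.56 and 8.62 to 9.31.

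In the signal relay from receptor to the MAP kinases, 18 of 20 genes were tested. Against WT1-negative cells, 6 rose and 5 fell in WT1-high cells, 4 rose and 5 fell in WT1-intermediate cells, and none was called between the liver groups. Map2k1, which encodes a kinase of the ERK cascade, rose by 2.49 (adjusted p = 1.81e-05) and 2.78 (adjusted p = 9.62e-06), and was detected on 1 of 3 WT1-negative arrays. The exchange factor gene Sos2 rose by 1.16 (adjusted p = 4.91e-05) in WT1-high cells. The small GTPase gene Nras fell, with differences of -1.45 (adjusted p = 6.52e-06) and -1.40 (adjusted p = 1.06e-05). Pik3r1 fell by 0.80 (adjusted p = 0.00643) in WT1-high cells, a call lost under scaling to equal medians (adjusted p = 0.0558), and Mapk3, which encodes ERK1, fell by 1.14 (adjusted p = 0.00218) in WT1-intermediate cells. For Braf a second probe was called in the opposite direction, so its call is not described.

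Feedback and target genes report on FGF signalling more closely than the relay does, and they did not move together. Of 14 listed, 10 were tested, and 2 rose and 1 fell in WT1-high cells against WT1-negative cells, with a median of 0.007. In WT1-intermediate cells 3 rose and 4 fell, with a median of -0.174. None was called between the liver groups, where the median was 0.182. Etv1 was called higher there (1.16, adjusted p = 0.000216) with the block by numbers as labelled, in which replicates 29 and 30 have no partner, but not with 29 paired to 30 (0.77, adjusted p = 0.0851). Spry1 and Dusp5 were not analysed here, and Spred2 and Spred3 did not pass the filter.

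The inhibitor Il17rd (Sef) rose by 2.82 ± 0.159 (SE, log2, adjusted p = 9.74e-08) in WT1-high and 2.57 ± 0.159 (adjusted p = 2.54e-07) in WT1-intermediate cells. Its log2 levels were 7.23, 7.33 and 7.29 in WT1-high, 6.84, 7.16 and 7.09 in WT1-intermediate, and 4.36, 4.72 and 4.31 in WT1-negative cells, and 1 WT1-negative array detected it. The sprouty inhibitor Spry4 rose by 1.10 (adjusted p = 0.00129) and 0.88 (adjusted p = 0.00549), the second call being lost under scaling to equal medians (0.63, adjusted p = 0.125). Spry2 was above WT1-negative cells, which did not detect it, by at least 1.10-fold in WT1-intermediate cells (adjusted p = 0.0114), a call likewise lost under equal medians (adjusted p = 0.096), and it was not called in WT1-high cells (adjusted p = 0.0521). Spry3 had differences of 0.35, 0.18 and -0.17 in the 3 comparisons and was not called.

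The transcription factor gene Etv5, a common target of FGF signals, moved opposite to Il17rd. The difference was -2.79 ± 0.214 (SE, log2, adjusted p = 1.04e-06) in WT1-high and -2.46 ± 0.214 (adjusted p = 3.35e-06) in WT1-intermediate cells. Its log2 levels were 5.39, 5.27 and 5.16 in WT1-high, 6.06, 5.29 and 5.46 in WT1-intermediate, and 8.37, 7.96 and 7.84 in WT1-negative cells. Etv1 fell by 1.53 (adjusted p = 0.0039) in WT1-intermediate cells and had a difference of -0.76 (adjusted p = 0.0925) in WT1-high cells, where replicates 1 and 8 read 6.29 and 6.21 and replicate 29 read 4.99. Etv4 was detected on no WT1-intermediate array and was there at least 1.22-fold lower than in WT1-negative cells (adjusted p = 0.0455). Spred1 fell by 0.54 (adjusted p = 0.0328) in WT1-intermediate cells, and both calls were lost under several other settings. In WT1-high cells their differences were -0.37 (adjusted p = 0.113) and -0.30 (adjusted p = 0.196). The phosphatase genes Dusp4 (0.45 and 0.31) and Dusp6 (-0.16 and -0.17) were not called by their lead probes, and other probes of both were called in the opposite direction, so their direction is uncertain.

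**Figure D5:**
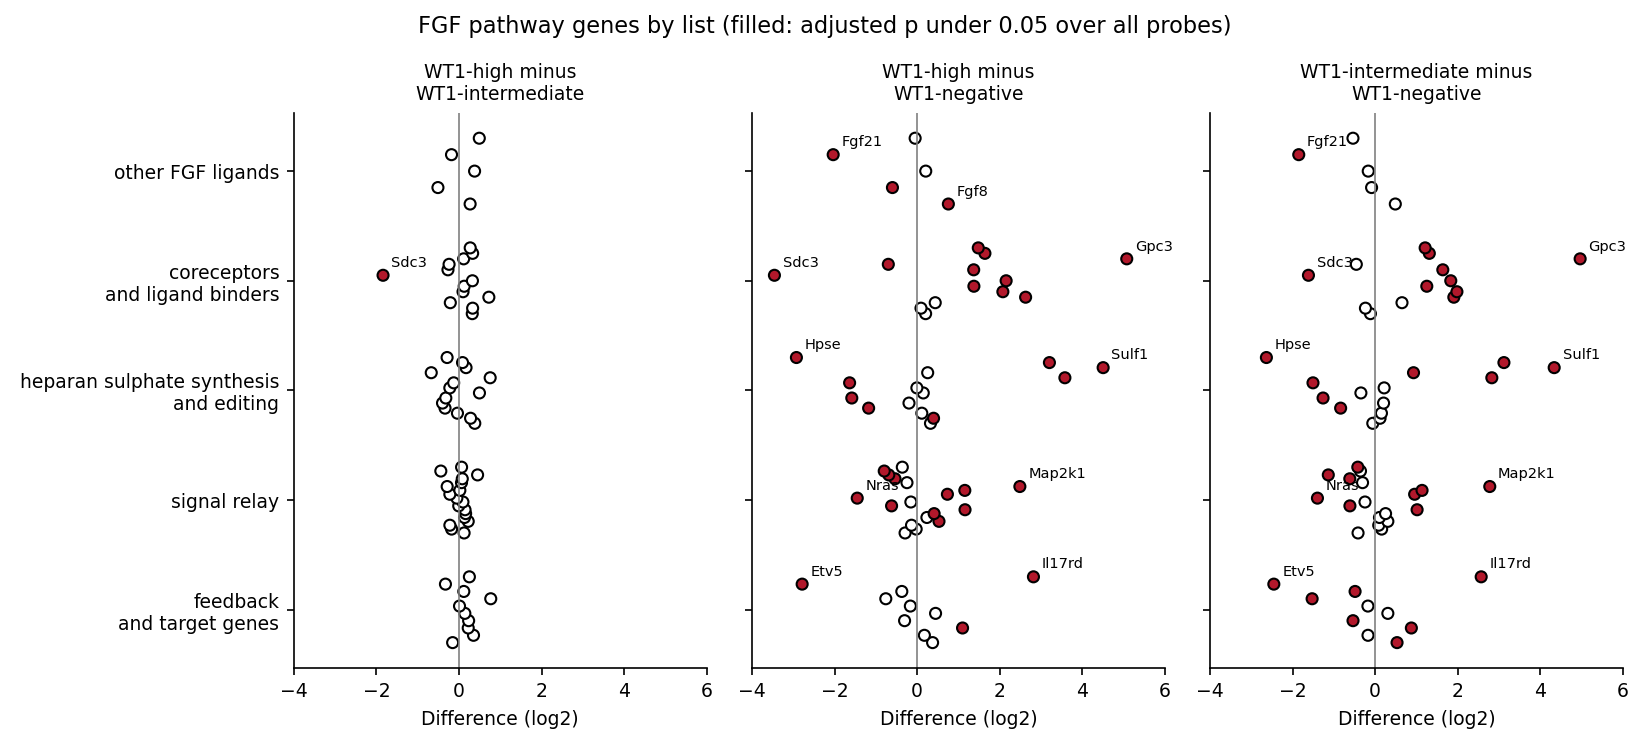
Differences (log2, horizontal axis) of the 60 tested FGF pathway genes in 5 lists (vertical axis) for the 3 comparisons, filled where the adjusted p was under 0.05 over all probes, with the extreme called genes named. In the comparison of the liver groups Sdc3 is the filled point, at -1.84, whereas both comparisons with WT1-negative cells reach from below -2 to above 4.

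Because the cells were sorted on expression from the WT1 locus, the 250 bases before the RefSeq transcription starts of the members were searched for GCGGGGGCG, the textbook site shared by WT1 and EGR factors, which contains part of the GC box bound by Sp1. On either strand it was in 2.57% of 32851 such windows (RefSeq, GRCm38.p6). Of 8 members with a window, Fgf2 and Fgfr3 held it. Fgf1 and Fgfr1 had no window. The windows of Fgf7 and Fgfr2, which differed most in opposite directions among the printed members, held none and are given 5′ to 3′ on the strand of the gene, with no capitals since nothing matched.
Fgf7, chr2:126034408-126034657, plus strand: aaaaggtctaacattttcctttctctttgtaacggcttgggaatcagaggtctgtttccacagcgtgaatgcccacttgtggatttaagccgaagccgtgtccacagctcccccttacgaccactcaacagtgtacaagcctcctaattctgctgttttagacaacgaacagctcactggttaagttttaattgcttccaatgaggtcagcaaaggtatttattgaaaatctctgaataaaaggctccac
Fgfr2, chr7:130266809-130267058, minus strand: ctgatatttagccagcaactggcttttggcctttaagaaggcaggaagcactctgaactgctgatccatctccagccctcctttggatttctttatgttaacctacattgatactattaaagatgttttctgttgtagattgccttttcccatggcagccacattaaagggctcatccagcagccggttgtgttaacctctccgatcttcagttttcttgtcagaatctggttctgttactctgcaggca
A match or its absence describes these letters in these windows alone.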

How the data were processed

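The authors deposited BeadStudio summary probe profiles, a linear intensity per probe that was neither background corrected nor normalized, with a deposited detection p-value (the share of 936 negative control probes brighter than the probe). Intensities were read from the deposited table that joins all arrays by sample. For detection p-values and control probes, a liver column numbered 29 was taken as WT1-intermediate replicate 30, the single array of that group left. The other 83 columns of per-sample values (bead statistics, repeated detection p-values and 2 further columns numbered 29) were not used.

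Intensities were background corrected against negative controls, quantile normalized and log2 transformed over all 9 arrays (neqc, offset 16, limma 3.58.1, R 4.3.3). Of 45281 gene probes, the 20573 that 3 or more arrays detected (p under 0.05) were tested. A linear model with 3 groups gave moderated two-sided tests (6 residual and 5.19 prior degrees of freedom), adjusted by Benjamini-Hochberg over all kept probes, and probes at an adjusted p under 0.05 are said to be called. A fold is written "at least" where no array of the dimmer group detected the probe. It was taken against the mean background limit, per array the higher of the lowest detected signal and the probe's own. With 3 arrays per group, their number limits the precision.

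All probes of the 10 members are described. The members and lists were chosen with earlier results of these data known. From each pathway list the called genes with the 2 highest and 2 lowest differences per comparison are named, plus every tested feedback and target gene. One signal relay gene that this rule names is not reported here. Genes most like a member are given where its lead probe ranged over more than 2 log2 units. Of 189 list entries, 183 matched by symbol, 3 by Entrez gene ID through RefSeq (Hras as Hras1, Adgre1 as Emr1, Epcam as Tacstd1), and 3 were unmatched.

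The methods give 3 animals for the liver arrays, and replicate numbers 1 and 8 recur in both liver groups. Deviations from group means correlated by 0.352 for numbers 1, 0.338 for 8 and 0.468 for 29 with 30, and by -0.386 to 0.034 otherwise. The pairing of 29 with 30 was inferred from these values and the 3 animals, and the block by number was run as an alternative. The other alternatives changed background correction, scaling, offset, filter, array weights and the arrays used. The steps were tested on simulated data.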

Additional observations from a re-analysis of the deposited data

How the results depend on the processing

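No called FGF difference changed sign under the other settings that tested it, 14 to 21 for each. The brighter probes of Fgf1 and Fgfr2, Fgf9, Fgf18 and the fall of Fgf7 against WT1-negative cells kept their calls wherever they were tested, and Fgfr2 ILMN_1229167 lost its call against WT1-negative cells with an offset of 50 and without any of WT1-negative replicates 3, 11 and 14. All settings refit the same arrays, and the members were chosen with earlier results known, so kept calls are no further support. Sizes depended on background correction. Without it the difference of Fgf1 ILMN_2701233 was 1.68 between the liver groups and 2.78 between WT1-high and WT1-negative cells. Scaling to equal medians shifted the median of all probes by 0.402 for WT1-high minus WT1-intermediate and -0.303 for WT1-intermediate minus WT1-negative. Cyclic loess shifted it by 0.104 and 0.129 against WT1-negative cells. The cause of the changes below was not tested, beyond fewer probes passing the stricter filter.

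Between the liver groups, 1 FGF probe was called in the reported fit, 3 with equal medians, 2 with cyclic loess, 2 with array weights, 4 with either fixed replicate block (numbers as labelled, or 29 with 30), 3 with the random replicate block, and 1 to 2 without single replicates. It was 2 without WT1-high replicate 29, where the second Fgf1 probe was added, and 2 without WT1-negative replicate 11, where Fgf7 was added. The pathway count there of 1 became 10 with equal medians, 5 with the replicate block as labelled and 3 with 29 paired to 30, and was 1 without any single replicate. The count over all probes of 730 was 473 without background correction (287 of them lower), 2684 with equal medians (2563 higher), 335 without a filter, 339 with the 6 liver arrays alone, 1847 and 1520 with the fixed replicate blocks, 1796 with the random one, and 324 to 866 without single replicates. Leaving out WT1-high replicate 8 gave 333, leaving out its replicate 29 gave 371, and leaving out WT1-intermediate replicate 1 gave the lowest of these, 324.

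Requiring detection on all 9 arrays gave 2 FGF probes in each comparison with WT1-negative cells (7 and 4 in the reported fit) and 7970 and 7716 probes in all (12258 and 11935). Without single replicates the FGF counts were 6 to 7 and 4 to 5, the pathway counts 29 to 35 and 30 to 35, and the counts over all probes 10171 to 12414 and 9799 to 12048. The random replicate block changed no FGF call in these 2 comparisons.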
